A study of Mus musculus with 12 samples.

Results

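Collagens and the proteins that modify them were followed in RNA-seq libraries of B16-F10 cells, a mouse melanoma line, with and without loss of the muscleblind-like RNA-binding proteins. The genes were chosen by symbol: every gene named as a collagen chain (Col, a type number, a and a chain number), the lysyl hydroxylases Plod1 to Plod3, the prolyl 4-hydroxylase subunits P4ha1 to P4ha3, Lox and Loxl1 to Loxl4, and Serpinh1, Bmp1, Pcolce, Sparc and Fn1. This gave 59 of the 23022 listed genes, 43 collagen chains and 16 enzymes and partners. The rule used symbols only.

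The 12 libraries came from cells that carry Cas9, a cloned line in which all groups share the same editing enzyme. NTC cells received a control guide, which the labels call a no template control and the study a non-targeting control, and DKO cells received a guide pair against Mbnl1 and Mbnl2. Each genotype was left untreated or was given IFNg, the cytokine interferon gamma, at 1 ng/mL for 24 h, with 3 libraries per group. According to the study's methods, the edited cells were selected with puromycin. Its results describe a polyclonal line in which loss of MBNL protein varied, and monoclonal lines made later. The methods do not say which gave the libraries, so DKO libraries may hold RNA of cells edited to different degrees. Mbnl1 stood at 56.8, 57.0 and 55.6 TPM (a transcript level scaled for gene length and library total) in untreated NTC cells, against 41.3, 41.1 and 44.0 TPM in the untreated DKO group. With IFNg it stood at 60.5, 63.9 and 63.3 TPM in NTC cells against 44.9, 42.7 and 47.5 TPM in DKO cells. Mbnl2 lay between 99.2 and 107 TPM in NTC and between 83.9 and 98.0 TPM in DKO libraries. For both genes the genotypes did not overlap, and most of the RNA remained. RNA levels alone do not show how many alleles were edited or how much protein was lost. By DNA sequencing, the study found small insertions or deletions in most alleles of its polyclonal knockout cells, while some protein remained on western blots. Nothing in the labels says that the replicates came from separate cultures, so p-values measure the spread between these libraries, which may be technical.

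Collagen chains are made in the endoplasmic reticulum, where prolines and lysines are hydroxylated and the chaperone HSP47 binds the folding triple helix. Outside the cell, propeptides are cut off and lysyl oxidases cross-link the assembled fibrils or networks. The triple helix needs glycine at regular intervals, and glycine is encoded by GGN codons, so long stretches of collagen coding sequence are rich in G and C. In skin and in tumors, collagen RNA is known mostly from fibroblasts, while melanoma cells make smaller amounts of basement membrane and matrix proteins themselves.

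Melanocyte markers were present in every library, with all 7 genes listed (Dct, Tyr, Tyrp1, Pmel, Mlana, Mitf, Sox10) reaching 1 TPM. Their summed level was 16650 to 17550 TPM in untreated NTC, 18050 to 18640 TPM in treated NTC, 11120 to 11450 TPM in untreated DKO and 12320 to 12410 TPM in treated DKO libraries. Of 6 fibroblast markers, Thy1, Dcn, Lum and Twist2 were listed at 0 in all 12 libraries, and the other two, Pdgfra and Pdgfrb, brought the summed level to between 2.91 and 4.48 TPM. The defining immune (Ptprc, Cd3e), endothelial (Cdh5, Kdr) and epithelial (Epcam, Krt14) markers were also listed at 0 throughout.

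By mean TPM, every enzyme or partner that passed the filter, except Bmp1 (4.10 TPM), ranked above every collagen chain. Lox, Loxl1, Loxl4 and P4ha3 did not pass it. A gene was tested where it reached 1 TPM in at least 3 libraries, which 27 of the 59 genes did, among 11663 tested genes. Sparc, a collagen-binding matricellular protein also called osteonectin, had the highest mean over all libraries at 444 TPM, followed by Serpinh1, which encodes HSP47, at 394 TPM. Then came Plod2 at 120 TPM, Plod1 at 96.2 TPM, P4ha1 at 92.3 TPM, P4ha2 at 89.7 TPM, Pcolce at 57.5 TPM, Plod3 at 35.1 TPM, Loxl3 at 25.8 TPM and Loxl2 at 21.7 TPM. The most abundant collagen chain gene was Col5a1, at 9.84 TPM. From Sparc to Loxl2 in this order, the libraries of neighbouring genes overlapped in level except between Serpinh1 and Plod2, between Pcolce and Plod3, and between Plod3 and Loxl3.

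Tested collagen chains numbered 15 of 43. They were 6 of 11 fibril-forming chains (Col1a1, Col1a2, Col5a1, Col5a3, Col11a2 and Col27a1), 3 of 9 basement membrane and network chains (Col4a1, Col4a2 and Col4a5), 5 of 9 fibril-associated chains (Col9a1, Col12a1, Col14a1, Col16a1 and Col20a1) and the multiplexin Col15a1. None of the 6 beaded filament chains of type VI and related collagens passed, nor any of the 4 transmembrane chains. The 32 genes that were not tested stayed at or below 1.16 TPM in every library, the highest being Col9a2, Col18a1 and Col2a1. Col6a2, Col6a4, Col6a6, Col13a1 and P4ha3 were listed at 0 in all libraries. Col5a2, the usual partner chain of Col5a1 in type V collagen, reached no more than 0.160 TPM, Lox no more than 0.190 TPM and Col3a1 no more than 0.202 TPM. Among the tested genes, 20 reached 1 TPM in all 12 libraries, while Col1a1, Col9a1, Col11a2 and Col12a1 passed only because of their DKO libraries and Col14a1 only because of its NTC libraries.

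Short stretches from the middle of 5 coding sequences show how base composition differs within this group. The response to IFNg given below varied with GC content over all exons of a gene, of which coding sequence is only a part. Each stretch has 120 bases from GENCODE M21 transcripts on GRCm38, 5′ to 3′, and capitals mark the GGN codons in reading frame. Coordinates span the exons that the stretch covers.
Col5a3, minus strand, 4 exons, chr9:20786238-20787266: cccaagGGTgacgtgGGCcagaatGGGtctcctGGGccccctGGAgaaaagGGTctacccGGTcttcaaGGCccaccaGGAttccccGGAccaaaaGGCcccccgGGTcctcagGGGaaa
Col1a2, plus strand, 3 exons, chr6:4529077-4530977: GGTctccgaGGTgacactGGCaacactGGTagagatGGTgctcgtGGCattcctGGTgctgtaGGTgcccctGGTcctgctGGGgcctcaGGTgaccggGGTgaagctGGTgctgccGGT
Col9a1, plus strand, 3 exons, chr1:24210409-24217583: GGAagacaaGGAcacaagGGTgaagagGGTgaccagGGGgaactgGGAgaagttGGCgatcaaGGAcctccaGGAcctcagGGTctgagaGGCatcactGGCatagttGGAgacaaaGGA
Sparc, minus strand, 2 exons, chr11:55399306-55402050: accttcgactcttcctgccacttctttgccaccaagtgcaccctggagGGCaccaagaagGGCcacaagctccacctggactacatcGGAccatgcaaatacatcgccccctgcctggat
Plod2, plus strand, 2 exons, chr9:92595334-92596405: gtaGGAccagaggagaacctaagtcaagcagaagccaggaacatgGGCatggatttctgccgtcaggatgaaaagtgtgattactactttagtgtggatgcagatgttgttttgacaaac
The 40 codons of the Col5a3 stretch held 13 GGN codons, those of Col1a2 and Col9a1 14 each, those of Sparc 3 and those of Plod2 2. G and C made up 65.0% of the bases in Col5a3, 64.2% in Col1a2, 55.8% in Col9a1, 57.5% in Sparc and 45.0% in Plod2. Over whole coding sequences, GGN made up 9.17% to 28.6% of codons in the 15 tested collagen chains (median 24.3%) and 4.81% to 10.2% in the 12 other tested genes (median 7.26%). Pearson's r between this share and the GC content of the exons was 0.31 in the tested chains and 0.39 over all tested genes of the group. Across the exons of each gene, median GC content was 56.1% in the tested collagen chains, 52.8% in the other tested genes of the group and 49.2% in all tested genes.

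The first comparison asked how control cells respond to IFNg. Collagen chain RNA was lower after treatment in NTC cells. The summed level of all 43 chains was 72.9, 72.6 and 73.0 TPM before treatment and 65.7, 58.1 and 54.8 TPM after it, or 72.8 ± 0.238 TPM against 59.5 ± 5.57 TPM (SD, n = 3), so that treated cells held 81.7% of the untreated level. All 15 tested chains had a log2 difference below 0, with a median of −0.24, and 9 of the 12 enzymes and partners did, with a median of −0.06. Of these chains, Col1a1, Col9a1, Col11a2 and Col12a1 stayed under 1 TPM in every NTC library. Over all tested genes the median was 0.02. All differences here are taken between values of log2(TPM + 1), a scale that understates changes of low genes.

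Of the 27 tested genes, 4 passed an adjusted p of 0.05 in limma, all of them lower with IFNg, while 4.78% of all tested genes were called lower, 7.31% higher and 12.1% in either direction. Unadjusted p was under 0.05 for 14 of the 27. In bulk RNA, fewer cells expressing a gene and less RNA per cell cannot be told apart. Sparc (chromosome 11, 55394500 to 55423183, minus strand, GRCm38) went from 429, 417 and 430 TPM to 356, 369 and 379 TPM. Its groups did not overlap, and the log2 difference was −0.21 (SE 0.0349, limma adjusted p = 0.00412). Serpinh1 (chromosome 7, 99345376 to 99353239, minus strand) went from 366, 407 and 396 TPM to 341, 342 and 307 TPM. Every treated library lay below every untreated one, and the log2 difference was −0.24 (SE 0.0582, limma adjusted p = 0.0227).

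The other two called genes encode chains of type V collagen, a minor fibril component known to control fibril width. Col5a3 (chromosome 9, 20770050 to 20815067, minus strand) fell from 9.26, 9.34 and 9.68 TPM to 7.54, 5.62 and 6.12 TPM. That was the largest log2 difference of the 27 genes, −0.50 (SE 0.106, limma adjusted p = 0.0145), with no overlap of the groups. Col5a1 (chromosome 2, 27886425 to 28039514, plus strand) fell from 8.62, 9.62 and 9.06 TPM to 8.07, 6.68 and 7.22 TPM, a log2 difference of −0.28 (SE 0.0820, limma adjusted p = 0.0429). Sparc was called in all 12 fits that each left out 1 library. Serpinh1 was lost without untreated NTC replicate 2 (limma adjusted p = 0.0886) or 3 (0.0761) and without treated NTC replicate 2 (0.0503) or 3 (0.0926). Col5a3 was lost without untreated NTC replicate 3 (limma adjusted p = 0.0555) and without treated NTC replicate 2 (0.0592) or 3 (0.0582). Col5a1 was lost without any of the 3 untreated NTC libraries (limma adjusted p = 0.0519, 0.141 and 0.106 for replicates 1, 2 and 3), without treated NTC replicate 2 (0.144) or 3 (0.112), and without any of the 3 untreated DKO libraries (0.0531 to 0.0579), which enter through the shared estimate of the spread.

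Several further chains were lower in every treated library without passing the adjusted threshold. Groups did not overlap for 12 of the 27 genes in the direction of lower values, against 14.7% of all tested genes, and for Plod2 in the other direction, against 21.8%. Besides the 4 called genes, the 12 were Col1a1, Col1a2, Col4a1, Col4a2, Col9a1, Col11a2, Col15a1 and Col27a1. Among them, Col1a1, Col9a1 and Col11a2 stayed under 1 TPM in every NTC library. Col4a2, which pairs with Col4a1 in the main basement membrane collagen, was at 6.43, 6.46 and 6.56 TPM without and at 5.56, 4.85 and 4.18 TPM with IFNg (log2 difference −0.36, SE 0.124, limma adjusted p = 0.0716). Col4a1 was at 7.22, 7.13 and 6.31 TPM without and at 5.77, 5.30 and 5.88 TPM with IFNg (−0.25, SE 0.0922, limma adjusted p = 0.0913). Col1a1, a chain of the main fibrillar collagen, was at 0.620, 0.571 and 0.714 TPM without and at 0.397, 0.239 and 0.257 TPM with IFNg, all under 1 TPM (log2 difference −0.33, SE 0.112, limma adjusted p = 0.0651). Col1a1 was called lower with a pseudocount of 0.1 (−0.90, limma adjusted p = 0.0428) and without the filter on low values (0.0238). Without treated DKO replicate 2, both type IV genes were called (limma adjusted p = 0.0482 for Col4a1 and 0.0291 for Col4a2), as was Col4a2 without treated NTC replicate 1 (0.0448). Plod2, which hydroxylates lysines at the chain ends, was called without treated NTC replicate 1 (0.0453) or treated DKO replicate 3 (0.0414).

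**Figure D1:**
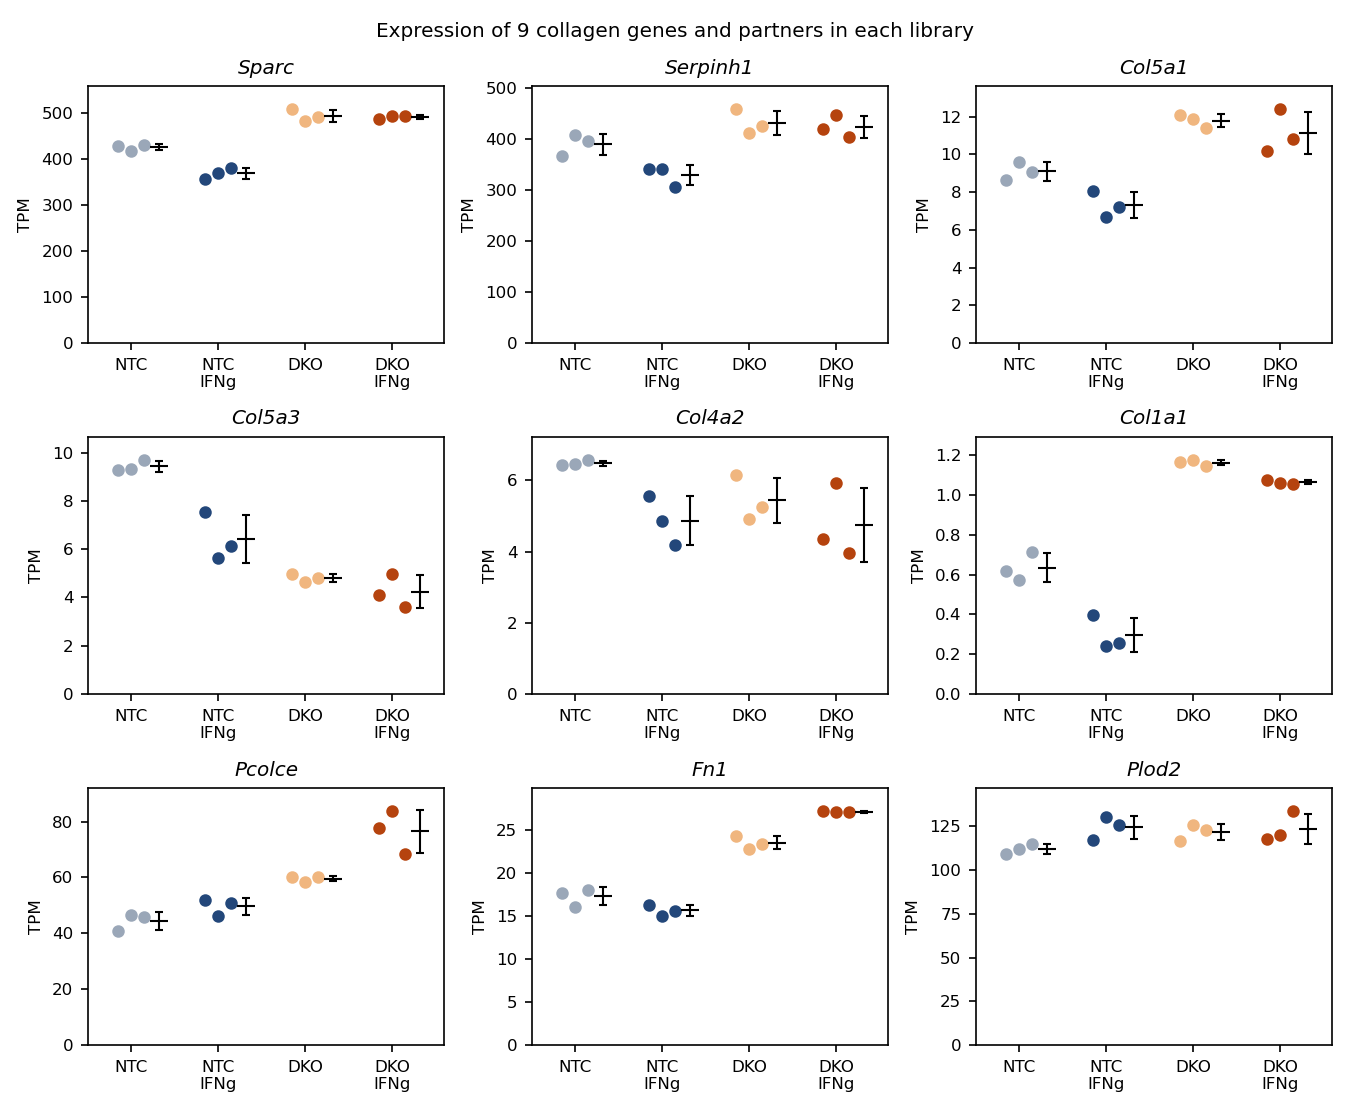
TPM of 9 genes in each of the 12 libraries, on axes that start at 0. Colored points are the 3 libraries of a group, and the black bar beside them is the mean with its SD. Treated NTC libraries lie below untreated ones for Sparc, Serpinh1, Col5a1, Col5a3, Col4a2 and Col1a1, and DKO libraries lie above NTC libraries for Sparc, Col1a1, Pcolce and Fn1 and below untreated NTC libraries for Col5a3 and Col4a2.

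Of the 12 enzymes and partners, Serpinh1 and Sparc were the called ones. Plod1, Loxl3 and P4ha1 differed by no more than 0.05 in either direction, with 95% intervals of −0.12 to 0.12 for Plod1, −0.17 to 0.16 for Loxl3 and −0.07 to 0.17 for P4ha1. P4ha2 (log2 difference −0.06), Loxl2 (−0.07) and Plod3 (−0.13, limma adjusted p = 0.129) did not pass either. Plod2 was at 109, 112 and 115 TPM without and at 117, 130 and 126 TPM with IFNg (0.15, SE 0.0547, limma adjusted p = 0.0838). Bmp1, the protease that removes the C-terminal propeptide, had a log2 difference of −0.23 (SE 0.131, limma adjusted p = 0.245), and Pcolce, which enhances that cleavage, one of 0.16 (SE 0.0727, limma adjusted p = 0.157). Fn1, fibronectin, was at 17.7, 16.1 and 18.1 TPM without and at 16.3, 15.1 and 15.7 TPM with IFNg (−0.13, SE 0.0556, limma adjusted p = 0.120), and its groups overlapped. Exons of Loxl3 and Plod3 share 535 and 529 bases with Htra2 and Znhit1 on the opposite strand, and in unstranded libraries their reads are not separated. Fn1 shares 292 bases with Apol7d and Pcolce 112 bases with Fbxo24, which had mean levels of 2.16 and 0.497 TPM.

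In DKO cells, the same question was asked of cells edited at Mbnl1 and Mbnl2. The summed level of collagen chains was 77.9, 74.2 and 72.4 TPM before treatment and 67.4, 75.6 and 61.8 TPM after it, or 74.8 ± 2.81 TPM against 68.3 ± 6.90 TPM (SD, n = 3), and the groups overlapped. Treated cells held 91.2% of the untreated level. The median log2 difference was −0.08 over the 15 tested chains and 0.01 over the 12 enzymes and partners, beside 0.01 over all tested genes. Treated DKO replicate 2 stood apart from the other two treated libraries, at or above the lowest untreated one for Col5a1 (10.2, 12.4 and 10.8 TPM in replicates 1, 2 and 3), Col5a3 (4.12, 4.98 and 3.61 TPM) and Col4a2 (4.35, 5.93 and 3.96 TPM).

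Only Pcolce was called in DKO cells, 1 of 27 genes, while 0.780% of all tested genes were called, 0.677% higher and 0.103% lower. It rose from 60.1, 58.4 and 60.1 TPM to 77.7, 83.6 and 68.4 TPM (chromosome 5, 137605103 to 137613784, minus strand), with no overlap and a log2 difference of 0.35 (SE 0.0727, limma adjusted p = 0.0392). In fits that each left out 1 library, the call held in 4 of 12, with adjusted p from limma up to 0.179. It was lost without untreated NTC replicate 3 (0.0636), treated NTC replicate 1 (0.0521) or 3 (0.0591), untreated DKO replicate 1 (0.120), 2 (0.179) or 3 (0.135), and treated DKO replicate 1 (0.174) or 2 (0.109). The call also ended without the filter on low values (limma adjusted p = 0.0798), under either other scaling of the libraries (0.0571 in both) and in a fit of the DKO libraries alone (0.105). The lowest adjusted p among the other 26 genes belonged to Fn1, which was at 24.3, 22.9 and 23.4 TPM without and at 27.2, 27.1 and 27.1 TPM with IFNg (log2 difference 0.20, SE 0.0556, limma adjusted p = 0.192). Groups did not overlap for Pcolce and Fn1 upward, against 9.46% of all tested genes, and for Col1a1, Col11a2 and Col27a1 downward, against 5.29%. Sparc was at 507, 482 and 490 TPM without and at 485, 493 and 493 TPM with IFNg, a log2 difference of −0.01 with a 95% interval of −0.08 to 0.07. Serpinh1 gave −0.03, with an interval of −0.16 to 0.09, Col5a1 −0.08 (−0.26 to 0.10) and Col5a3 −0.16 (−0.38 to 0.07).

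**Figure D2:**
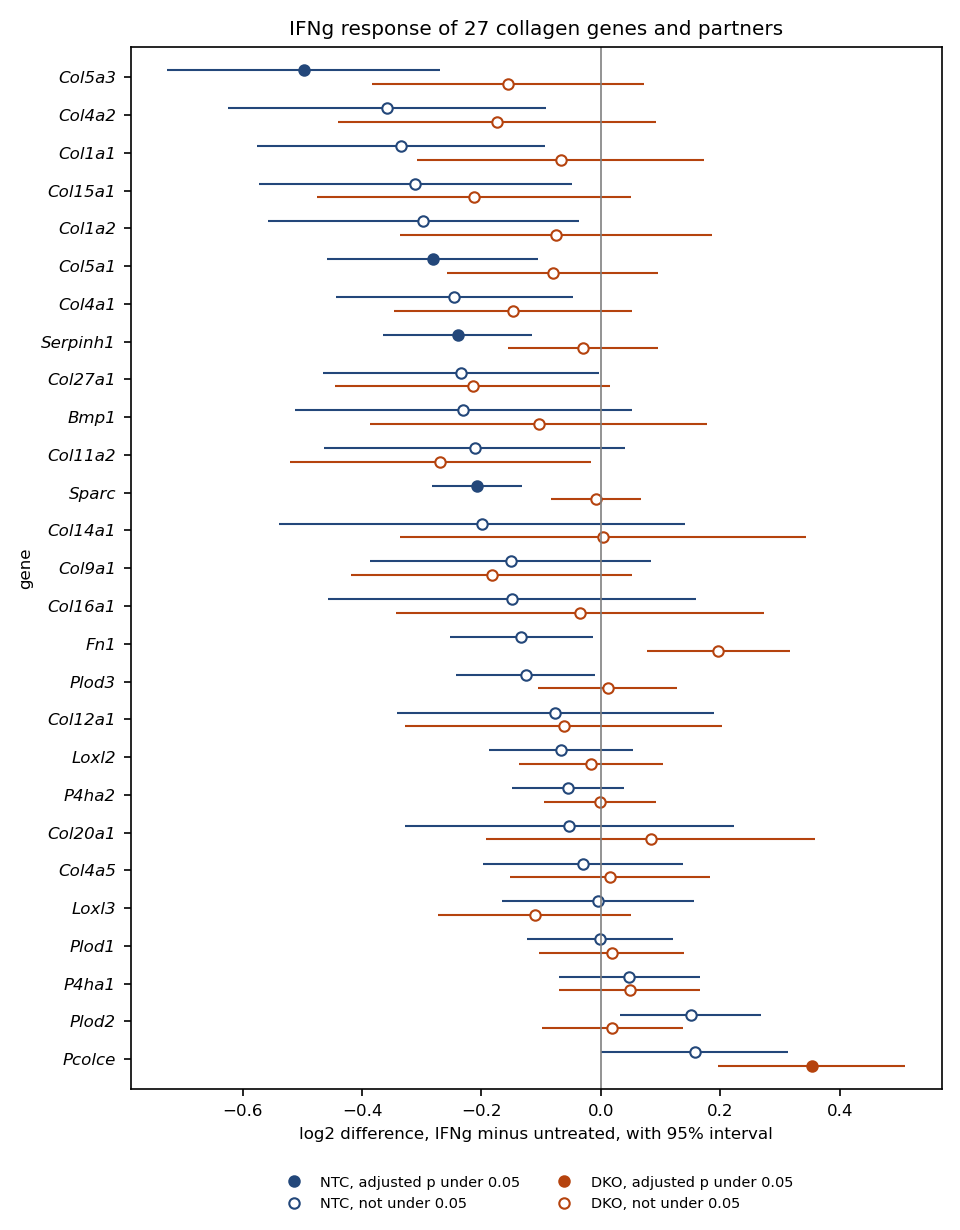
Log2 differences of TPM + 1 between treated and untreated libraries for the 27 tested genes in NTC (blue) and DKO cells (orange), with 95% intervals from limma, ordered by the value in NTC cells. Filled points passed an adjusted p of 0.05, which were Col5a3, Col5a1, Serpinh1 and Sparc in NTC and Pcolce in DKO cells.

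Whether the 2 genotypes differed in their response was tested directly, as the response in DKO minus that in NTC cells. No gene of the 27 was called by limma, where 0.0343% of all tested genes were (0.00857% higher and 0.0257% lower), and 4 of the 27 had an unadjusted p under 0.05. The 4 were Fn1 (difference of the responses 0.33, SE 0.0786, limma adjusted p = 0.364), Sparc (0.20, SE 0.0494, adjusted p = 0.364), Serpinh1 (0.21, SE 0.0822, adjusted p = 0.412) and Col5a3 (0.34, adjusted p = 0.420). Values were above 0 for 23 of the 27 genes, with a median of 0.11, and for all tested genes the median was −0.01. The difference between genotypes did not pass for any single gene, and its 95% interval for Sparc ran from 0.09 to 0.31 before adjustment for the number of genes tested.

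Response and base composition varied together in NTC cells. Sorted into 5 bins of equal size by GC content, all tested genes had median log2 differences with IFNg in NTC cells of 0.13, 0.09, 0.03, −0.04 and −0.15 from the lowest to the highest GC content. Called lower were 0.259% of the genes in the lowest bin and 16.3% in the highest. The 27 genes fell unevenly into these bins, with 1, 3, 5, 5 and 13 in order of rising GC content, and 3 of the 4 called genes, Serpinh1, Col5a1 and Col5a3, lay in the highest bin, where the 13 genes had a median of −0.24. Across genes, Pearson's r between GC content and log2 difference was −0.46 over 11563 tested genes (Spearman's rho −0.60) and −0.49 over the 27 (rho −0.48). In DKO cells the same r was −0.11 over all tested genes and −0.31 over the 27. Genes of 1 library share its depth and preparation and are not independent replicates, so these values describe the libraries and carry no p.

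The slope of each library against the mean of all libraries, in log2 units per 10 points of GC content, was −0.01, 0.07 and 0.04 in untreated NTC and −0.09, −0.15 and −0.17 in treated NTC replicates 1, 2 and 3. It was 0.12, 0.03 and 0.04 in untreated and 0.03, 0.14 and −0.06 in treated DKO replicates. Within treated NTC libraries, replicate 3 had the steepest slope and the lowest summed collagen level (54.8 TPM), and replicate 1 the flattest slope and the highest level (65.7 TPM). Within treated DKO libraries, replicate 2 had the highest slope and the highest level (75.6 TPM), and replicate 3 the lowest of both (61.8 TPM). The untreated NTC libraries, with slopes from −0.01 to 0.07, had summed levels of 72.6 to 73.0 TPM. In untreated DKO libraries replicate 1 had the highest slope and level (77.9 TPM), while replicate 2 had a lower slope than replicate 3 (0.0325 against 0.0431) and a higher level (74.2 against 72.4 TPM). Whether the trend arose in the cells or in library preparation was not tested.

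**Figure D3:**
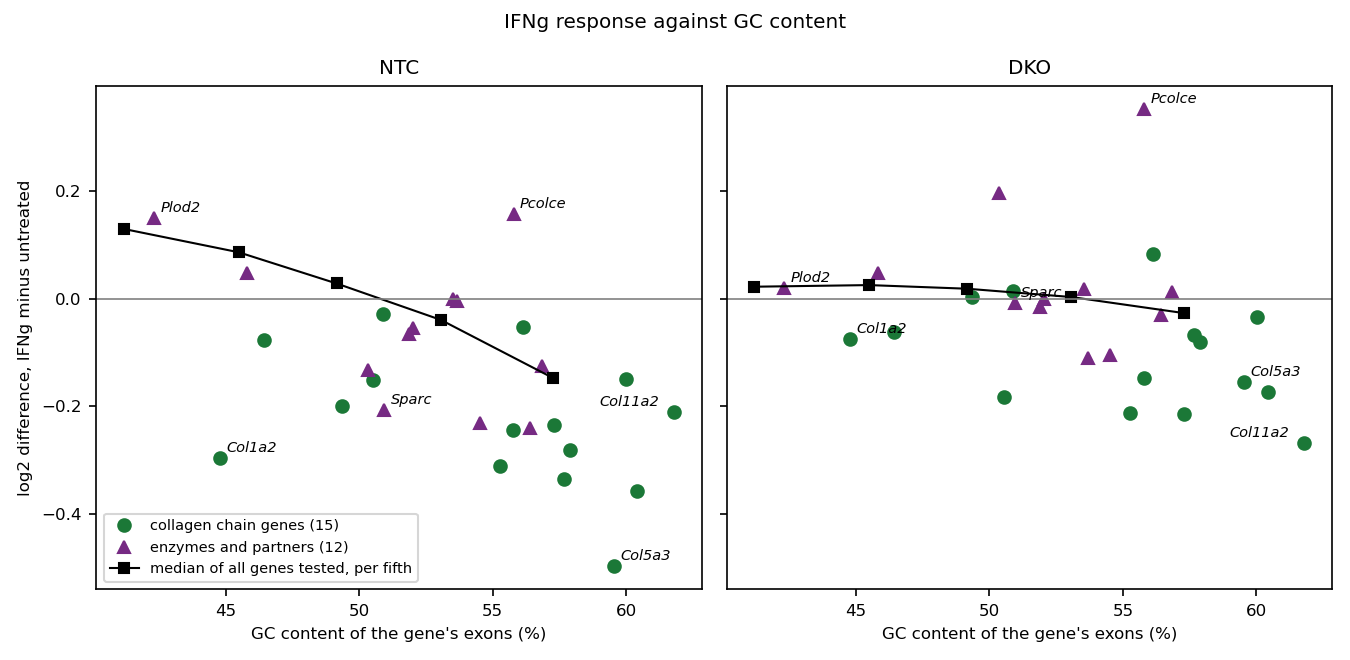
Log2 difference with IFNg against the GC content of each gene's exons in NTC (left) and DKO cells (right). Circles are the 15 tested collagen chains, triangles the 12 enzymes and partners, and squares the medians of all tested genes in 5 bins by GC content, which run from 0.13 to −0.15 in NTC cells.

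To see how much of the fall went along with this trend, each library's smooth trend against GC content and exon length, estimated from all tested genes with known GC content, was taken out before the same fit. The median of the 15 collagen chains in NTC cells moved from −0.24 to −0.11 and that of the 12 other genes from −0.06 to −0.02. Of the chains, 11 came closer to 0 and 4 did not, and 12 of 15 remained below 0. After this step 2 of the 27 genes were called by limma in NTC cells, where 5.34% of all tested genes were, 3.57% higher and 1.76% lower. Sparc stayed at −0.20 (adjusted p = 0.00251), and Pcolce went from 0.16 to 0.27 and was now called higher (adjusted p = 0.0128). The other 3 calls were lost. Col5a3 went to −0.27 (limma adjusted p = 0.0684), Serpinh1 to −0.13 (0.0759) and Col5a1 to −0.10 (0.411). Col4a2 went from −0.36 to −0.10, Col11a2 from −0.21 to 0.09 and Col16a1 from −0.15 to 0.10. With GC content alone in the trend, Sparc and Pcolce were again the called genes, and the median of the 27 was −0.12, against −0.10 with length added and −0.15 as deposited.

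Col1a2 did not follow this pattern. Its log2 difference moved away from 0, from −0.30 to −0.36 (limma adjusted p = 0.106 after the step), where it was the lowest value of the 27. The exons annotated for Col1a2 sum to 12426 bases with a GC content of 44.8%, the lowest of the tested chains, while its coding sequence of 4119 bases, from which the stretch above was taken, has 59.5%. The size of the trend taken out of a gene therefore depends on which exons are counted. Sparc, with 51% GC in its exons, moved only from −0.21 to −0.20.

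In DKO cells the same step left 1 called gene, Pcolce (log2 difference 0.37, limma adjusted p = 0.00176), where 1.12% of all tested genes were called (0.934% higher and 0.182% lower), and moved the median of the chains from −0.08 to −0.10. For the difference between the genotypes' responses, the median of the 27 fell from 0.11 to 0.02 and no gene was called, where 0.0432% of all tested genes were.

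**Figure D4:**
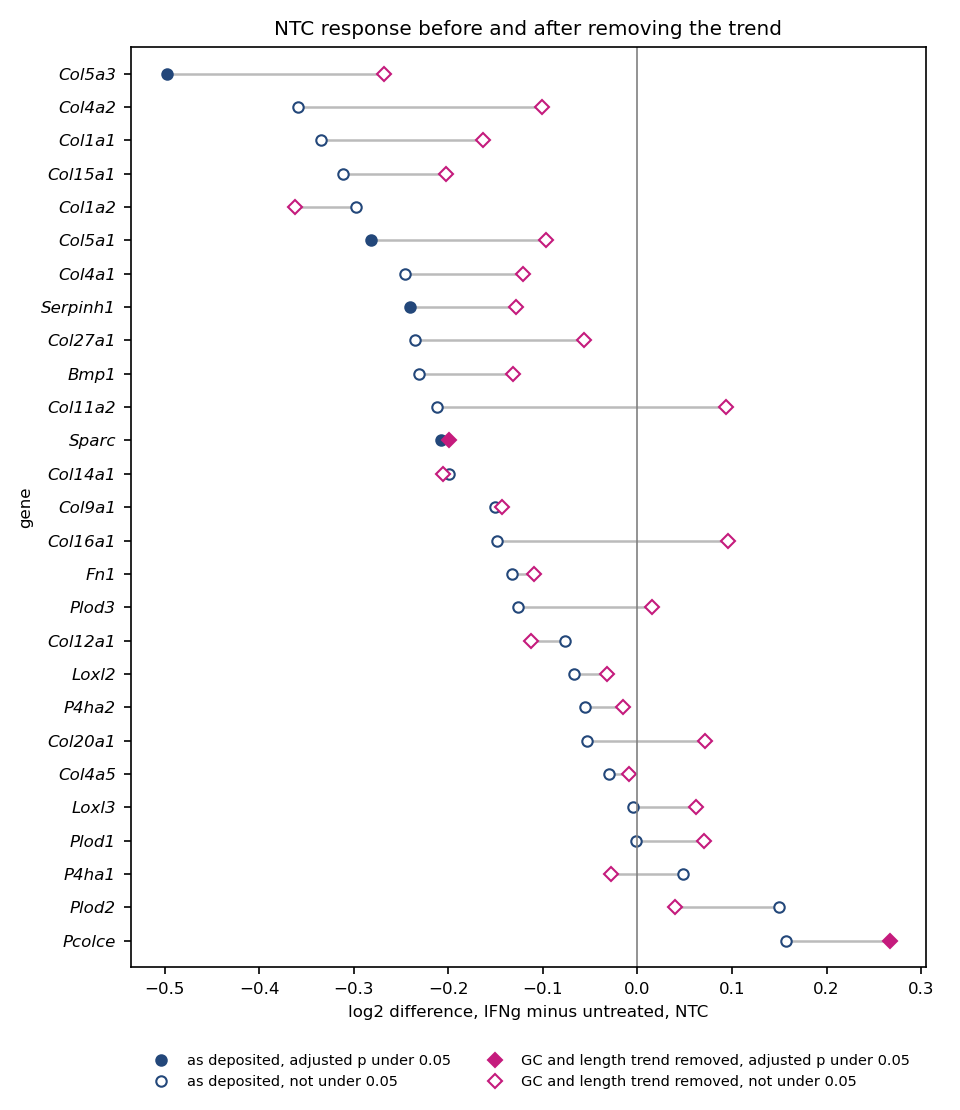
Log2 difference with IFNg in NTC cells for each of the 27 tested genes, as deposited (circles) and with the trend against GC content and exon length removed (diamonds), joined by a grey line. Filled marks passed an adjusted p of 0.05, which were Col5a3, Col5a1, Serpinh1 and Sparc as deposited and Sparc and Pcolce after removal.

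More of these genes were called between the genotypes than with IFNg. Between untreated DKO and NTC cells, 14 of the 27 genes were called, 10 higher and 4 lower in DKO, while 36.4% of all tested genes were called, 17.0% higher and 19.4% lower. With IFNg, 14 were called as well, 11 higher and 3 lower, beside 43.3% of all tested genes, 19.5% higher and 23.9% lower. Groups did not overlap for 13 genes upward and 6 downward without IFNg, against 24.8% and 26.8% of all tested genes, and for 13 and 3 with it, against 22.7% and 27.2%. Of the 14 called genes in each comparison, 13 were called in both, 10 higher and 3 lower. Col1a1 and Col9a1, called higher, had passed the filter only through DKO libraries, and Col14a1, called lower without IFNg, only through NTC libraries. The upward genes without overlap also held Col11a2, and with IFNg Col12a1, which passed only through DKO libraries as well. The filter thus partly fixed the direction of these genes, in the calls and in the counts without overlap. The melanocyte markers were lower in DKO cells, with 7 of 7 called without IFNg and 6 of 7 with it, and the part of this shift in the values below was not tested.

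Bmp1 and Pcolce, which act together on procollagen ends, were both higher in DKO cells. Bmp1 was at 3.06, 2.77 and 2.87 TPM in NTC cells and at 5.73, 5.83 and 5.77 TPM in DKO cells without IFNg, which differ by 0.80 (SE 0.131, limma adjusted p = 0.000381). With IFNg it was at 1.78, 3.06 and 2.25 TPM in NTC and at 5.92, 5.77 and 4.34 TPM in DKO libraries (0.92, SE 0.131, limma adjusted p = 0.000102). Pcolce was at 40.8, 46.6 and 45.9 TPM in untreated NTC libraries, below the 3 untreated DKO values given above, by 0.42 (SE 0.0727, limma adjusted p = 0.000606). With IFNg, NTC libraries were at 51.9, 46.1 and 50.9 TPM and the log2 difference was 0.61 (SE 0.0727, limma adjusted p = 2.34e-05). Groups did not overlap in any of these comparisons.

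Matrix partners and the chaperone were higher as well. Fn1 was higher in DKO by 0.42 without IFNg (SE 0.0556, limma adjusted p = 6.44e-05) and by 0.75 with it (SE 0.0556, limma adjusted p = 3.89e-07), so that treated DKO libraries at 27.1 to 27.2 TPM compare with treated NTC libraries at 15.1 to 16.3 TPM. Sparc was higher by 0.21 (limma adjusted p = 0.000377) and 0.41 (1.39e-06). Serpinh1 differed by 0.15 without IFNg, which did not pass (SE 0.0582, limma adjusted p = 0.0599), and by 0.36 with it (SE 0.0582, adjusted p = 0.000293). In untreated cells it passed without untreated NTC replicate 2 (0.0483), treated NTC replicate 3 (0.0430) or treated DKO replicate 2 (0.0472). No other fit that left out a library called it. It also passed under either other scaling of the libraries (limma adjusted p = 0.0231 and 0.0496) and in a fit of the untreated libraries alone (0.0494). With the trend against GC content removed it passed too (0.0310), also with length (0.0172). Plod1, the lysyl hydroxylase of the helical region, was at 79.8, 87.8 and 81.3 TPM in untreated NTC cells against 111, 108 and 107 TPM in DKO cells (0.39, SE 0.0566, limma adjusted p = 0.000153), with a like difference under IFNg (0.41, adjusted p = 8.96e-05).

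Several chains were higher in DKO cells. Col9a1, a fibril-associated collagen of cartilage that was tested only because of its DKO libraries, was at 0.874, 0.876 and 0.890 TPM in untreated NTC cells against 2.58, 2.13 and 2.40 TPM in DKO cells, higher by 0.84 (SE 0.109, limma adjusted p = 6.08e-05), and with IFNg the difference was 0.81 (adjusted p = 6.94e-05). Col1a1, tested for the same reason, was at 1.17, 1.17 and 1.15 TPM in untreated and at 1.07, 1.06 and 1.06 TPM in treated DKO libraries, above every NTC library (0.40, limma adjusted p = 0.0121, and 0.67, adjusted p = 0.000354). Its partner chain Col1a2 ranged from 1.25 to 1.42 TPM in untreated NTC and from 1.57 to 2.28 TPM in untreated DKO libraries (0.36, SE 0.121, limma adjusted p = 0.0340), and from 0.694 to 1.00 TPM against 1.69 to 2.01 TPM with IFNg (0.58, SE 0.121, adjusted p = 0.00185). Col5a1 was higher by 0.34 (limma adjusted p = 0.00534) and 0.54 (0.000170). Col27a1 was higher by 0.36 (limma adjusted p = 0.0188) and 0.38 (0.0121).

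The second type V chain went the other way. Col5a3 stood at 4.97, 4.64 and 4.79 TPM in untreated DKO cells, all below the 9.26 to 9.68 TPM of untreated NTC cells, with a log2 difference of −0.85 (SE 0.106, limma adjusted p = 4.28e-05). With IFNg, 4.12, 4.98 and 3.61 TPM in DKO cells stood against 7.54, 5.62 and 6.12 TPM in NTC cells, a log2 difference of −0.50 (SE 0.106, limma adjusted p = 0.00192). Loxl2, a lysyl oxidase-like enzyme that acts on basement membrane collagen, was at 26.7, 25.9 and 27.2 TPM in untreated NTC cells against 18.0, 16.3 and 18.0 TPM in DKO cells (−0.58, SE 0.0557, limma adjusted p = 4.55e-06). Under IFNg it was at 25.7, 26.4 and 24.1 TPM against 16.9, 17.3 and 17.5 TPM (−0.53, SE 0.0557, adjusted p = 8.25e-06). P4ha2 was lower by 0.21 (limma adjusted p = 0.00191) and 0.16 (0.0101) in these comparisons, while P4ha1, the other catalytic subunit that was tested, differed by −0.10 in both, which did not pass (0.156 and 0.141). Col14a1, tested only because of its NTC libraries, was lower without IFNg (−0.45, SE 0.158, limma adjusted p = 0.0405), at 1.70, 1.05 and 1.26 TPM against 0.628, 0.699 and 0.787 TPM, and did not pass with it (−0.24, adjusted p = 0.229). With a pseudocount of 0.1 it was not called without IFNg either (limma adjusted p = 0.0521).

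Basement membrane chains did not pass in either comparison. Col4a1 differed by −0.05 without IFNg (95% interval −0.25 to 0.15) and by 0.05 with it (−0.15 to 0.25), and Col4a5 by −0.07 (−0.24 to 0.09) and −0.03 (−0.20 to 0.14). Col4a2 differed by −0.22 (−0.49 to 0.04) and −0.04 (−0.30 to 0.23), and with the trend against GC content and length removed by −0.28 (limma adjusted p = 0.0164) and −0.29 (0.0126), which passed. Without that trend 17 genes were called in untreated cells, 12 higher and 5 lower, where 42.1% of all tested genes were, 20.0% higher and 22.1% lower. Plod2 (0.13, limma adjusted p = 0.0205) and Serpinh1 (0.13, 0.0172) were now among the higher ones. With IFNg 14 were called, 10 higher and 4 lower, where 42.6% of all tested genes were, 19.8% higher and 22.8% lower, and Col27a1 was no longer among them (0.17, limma adjusted p = 0.192). After scaling all libraries to 1 total, P4ha2 was not called with IFNg either (−0.07, limma adjusted p = 0.211). In fits that each left out 1 library, 3 of the calls in untreated cells were lost at least once. Col14a1 was lost without untreated NTC replicate 1 (limma adjusted p = 0.163) or 3 (0.0754) and without untreated DKO replicate 1 (0.105), 2 (0.0850) or 3 (0.0650). Col1a2 was lost without untreated NTC replicate 1 (0.0530), 2 (0.0834) or 3 (0.0916) and without untreated DKO replicate 1 (0.0973) or 3 (0.134). Col27a1 was lost without untreated NTC replicate 1 (0.0617) or 3 (0.0562) and without untreated DKO replicate 1 (0.0701) or 2 (0.0573). With IFNg, every call held in those fits, Col14a1 was called without treated NTC replicate 1 (0.0496), and P4ha1 without treated DKO replicate 3 (0.0261).

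**Figure D5:**
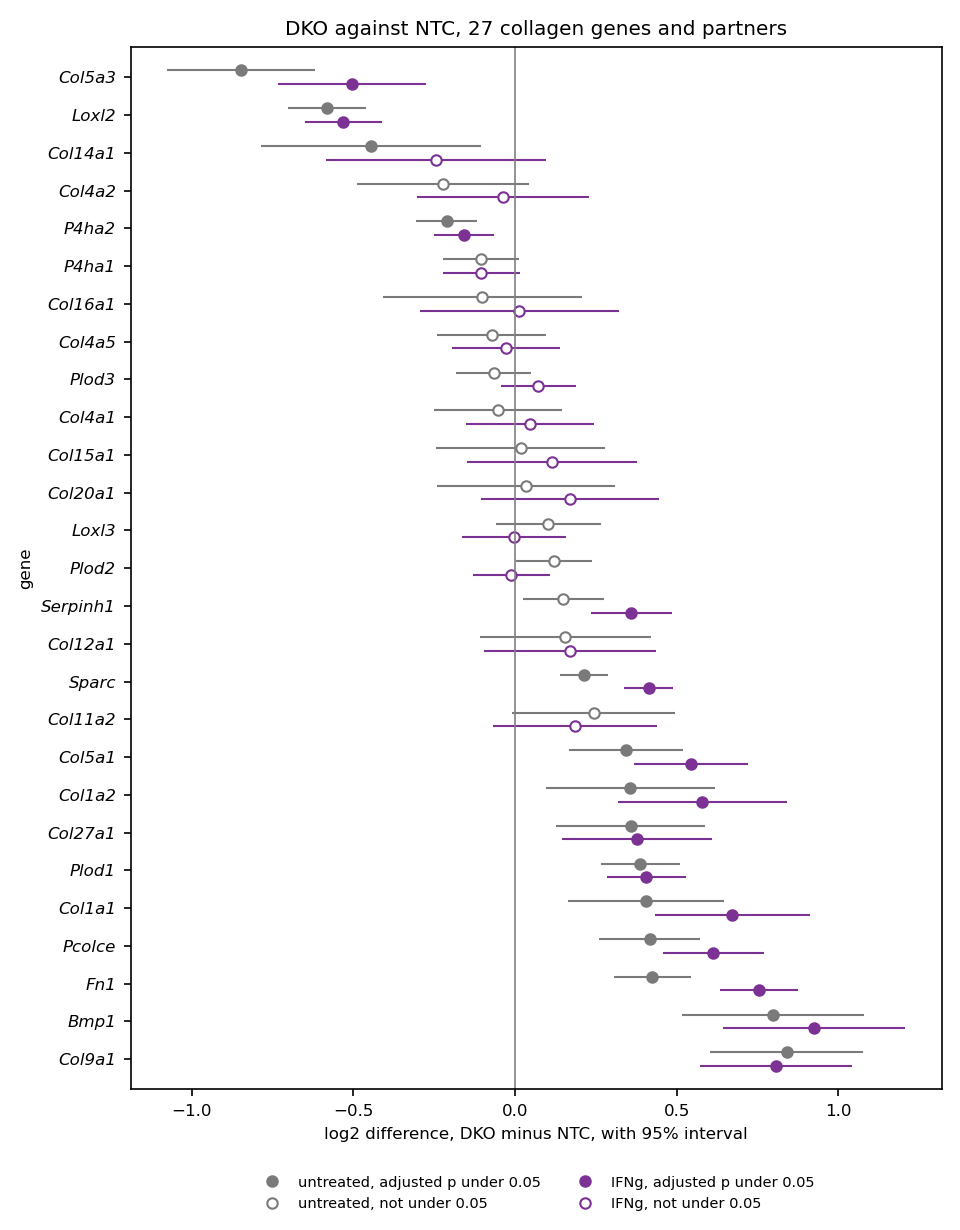
Log2 differences of TPM + 1 between DKO and NTC libraries for the 27 tested genes without IFNg (grey) and with it (purple), with 95% intervals from limma, ordered by the value without IFNg. Filled points passed an adjusted p of 0.05, and the values run from −0.85 for Col5a3 to 0.84 for Col9a1 without IFNg. Col1a1, Col9a1, Col11a2 and Col12a1 passed the filter only through DKO libraries, and Col14a1 only through NTC libraries.

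Other genes of collagen making, breakdown and sensing were taken from a list of 51, of which 50 were listed and 31 tested. With IFNg in NTC cells 2 were called higher and 2 lower, with a median of −0.04, where 7.31% of all tested genes were called higher and 4.78% lower. The prolyl 3-hydroxylase P3h3 was at 43.9, 46.8 and 44.3 TPM without and at 37.6, 33.4 and 33.4 TPM with IFNg (−0.36, SE 0.0590, limma adjusted p = 0.00321), and the metalloproteinase inhibitor Timp3 was lower by 0.39 (adjusted p = 0.0369). P4hb, the partner subunit of the prolyl 4-hydroxylases, was higher by 0.14 (limma adjusted p = 0.0286), and the secretory coat gene Sec23a by 0.26 (0.0262). P3h3 was called in all 12 fits that each left out 1 library, P4hb and Timp3 in 8 and Sec23a in 7. With the trend against GC content and length removed, P3h3 was at −0.16 (limma adjusted p = 0.0292), Timp3 at −0.46 (0.0305) and P4hb at 0.19 (0.00560), while Sec23a was at 0.14 and no longer called (0.190). In DKO cells none of the 31 was called by limma with IFNg, where 0.780% of all tested genes were, nor was any for the difference of the responses.

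Between genotypes, 12 of these 31 genes were called higher and 4 lower without IFNg, and 15 higher and 4 lower with it. Of all tested genes, 17.0% were called higher and 19.4% lower without IFNg, and 19.5% higher and 23.9% lower with it. Adamts14, a procollagen N-proteinase, was at 0.986, 1.42 and 1.04 TPM in untreated NTC cells against 3.67, 3.08 and 3.30 TPM in DKO cells, higher by 1.02 (SE 0.118, limma adjusted p = 2.17e-05). The growth factor Tgfb3 was higher in DKO by 0.91 without IFNg (limma adjusted p = 0.000201) and by 1.13 with it (2.89e-05), and Tgfb2 by 0.75 (2.17e-05) and 0.74 (2.10e-05). Of the collagen-binding receptor kinases, Ddr1 was higher by 0.69 with IFNg (limma adjusted p = 3.19e-05), and Ddr2 was lower by 0.66 (1.06e-05). The inhibitor Timp3 was lower by 0.88 without IFNg (limma adjusted p = 4.19e-05), and the collagen-associated folding enzyme Fkbp14 was higher by 0.74 (9.88e-06).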

How the data were processed

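RNA of 12 libraries was poly(A)-selected, unstranded and read from both ends over 50 bp. RSEM 1.2.4 calling Bowtie gave the TPM that the authors deposited, on mm10 (GRCm38), and any further scaling between libraries is not given in the sources used here. The file calls them counts, but they are not whole numbers, so the test planned for a normalized unit was run. TPM keep no read depth, so precision rests on replicates, and the listed genes summed to 805782 to 874612 TPM per library.

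Genes below 1 TPM in 10 or more libraries were dropped. The values, as log2(TPM + 1), entered limma 3.58.1 (R 4.3.3) with 1 mean per group over all 12 libraries and a variance trend. P-values were adjusted by Benjamini-Hochberg over all tested genes at 0.05. GC content and length came from GENCODE M21 exons, found for 22251 of 23022 listed genes and all 59 of the group. Trends were natural splines with 5 degrees of freedom. Python 3.11.15 with pandas 2.3.3, numpy 2.4.6 and matplotlib 3.10.9 made tables and figures. The fit was tested on simulated data.

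The text names every gene of the group called in any comparison, the 10 with the highest mean TPM, the enzymes and partners that were tested, the highest untested genes, and up to 5 called genes of the further list per comparison. Others were named after their values were seen. The genes and lists were chosen with earlier results of these data known. No 2 libraries held identical values (closest Pearson r 0.996). Replicate numbers did not pair the libraries. Alternatives were a pseudocount of 0.1, no filter, a replicate block, trends removed, other scalings, only the libraries compared, and each library left out.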

Additional observations from a re-analysis of the deposited data

How the results depend on the processing

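Values near 1 TPM are set largely by the filter and the pseudocount, and depth is unknown. Of the 4 genes called with IFNg in NTC cells, Sparc was called under all 21 alternatives, as were 11 of 14 genes between untreated genotypes and 12 of 14 with IFNg. Col1a1 and Col9a1 were among these in both genotype comparisons, although they had passed the filter only through DKO libraries. The number called in NTC cells was 2 with the trend against GC content removed, also with length or with length and the replicate block, and 1 to 6 with 1 library left out. It was 1 without untreated NTC replicate 3, treated NTC replicate 2 or treated NTC replicate 3, and 2 without untreated NTC replicate 2. In DKO cells it was 0 without the filter, with the replicate block, with either scaling and with only the libraries compared, and 0 to 1 with 1 library left out. The replicate block moved it from 4 to 3 in NTC, losing Col5a1 (limma adjusted p = 0.0616), ended the Pcolce call in DKO cells (0.0964), and moved it from 14 to 12 between untreated genotypes, losing Col1a2 (0.0511) and Col14a1 (0.0614). Same-numbered libraries had correlations of −0.18 to 0.18 and the same number correlated best in 8 of 36 cases.

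The median of tested genes in NTC cells, −0.15, was −0.21 with a pseudocount of 0.1 and −0.0692 without a filter, which tests 54 of the 59, and −0.193 to −0.131 with 1 library left out. For the difference of responses it went from 0.11 to 0.0416 without a filter, 0.0357 with the GC content trend removed, and 0.0169 with length added, with or without the block, and to between 0.0420 (without treated DKO replicate 2) and 0.166 with 1 library left out. Between genotypes with IFNg it went from 0.17 to 0.243 with a pseudocount of 0.1, 0.0750 without a filter, 0.0510 with the GC content trend removed and 0.0300 with length added, with or without the block. With 1 library left out it ran from 0.0924 (without treated DKO replicate 2) to 0.20, and was 0.103 without treated NTC replicate 3. The causes were not tested. Plod2 with IFNg turned from −0.01 to 0.10 between genotypes (limma adjusted p = 0.0272) with the block and both trends removed. Scaling each library to the same total moved the share of all called genes that were higher from 60.5% to 45.1% in NTC (46.0% with median-ratio scaling), from 46.7% to 60.6% between untreated genotypes and from 44.9% to 65.2% with IFNg. Tests for counts were not run, as the values are TPM.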
